A study of Mus musculus with 9 samples.

Results

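Apolipoprotein E and the genes around it were followed across 9 mammary tumours of 3 mouse breast cancer models. The set held Apoe itself, its receptors Lrp1 and Lrp8, the liver X receptors Nr1h2 and Nr1h3, and Abca1, a cholesterol exporter that liver X receptors switch on. These 6 genes were chosen by name, because the pathway restrains metastasis in other models, and with the expression values of these same tumours known, so the differences in read counts between HR1, LM1 and LM9 had a part in the choice. Their own levels and fold changes are therefore described and not tested. All 6 were found among the 14108 genes of the deposited count tables, and all 6 passed the filter on low counts that left 14086 genes.

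The models shared 1 origin. HR1 is a cell line from a mammary tumour of a transgenic mouse that expressed PIK3CA H1047R from the CAG promoter, which is active in most cell types, and the tumour cells were sorted on GFP before the line was made. LM1 and LM9 are each 1 cell line grown out of a lung metastasis that arose after HR1 cells had been given a doxycycline-inducible piggyBac transposon system, so they also carry the transposon, with its CAG promoter and puromycin resistance, at the insertion sites that each line kept. For every tumour 250000 cells in Matrigel and PBS were injected into the mammary fat pad of female NOD/SCID mice of 4 to 8 weeks, labelled as strain NOD.CB17-Prkcd<scid>/J, which lack T and B cells but keep macrophages. Tumours were taken before they reached 1500 mm3, GFP+ cells were sorted from them, and polyadenylated RNA was sequenced from 3 tumours of each model. The study compared the models in order to examine NFIB signalling in metastatic colonization. The labels did not say whether the HR1 tumours grew from the parental line or from the control line that received the transposase without the transposon. The study uses the name HR1 for the parental line and HR1.Ctrl for that control, and lists HR1 among its sequenced models. By the labels alone, HR1 and LM may or may not differ in the transposase. Nor did the labels say whether the 3 tumours of a model came from separate mice, so p-values measure only the spread between these samples.

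Apolipoprotein E is a secreted lipid carrier made in large amounts by liver, macrophages and astrocytes. Liver X receptors are nuclear receptors that sense oxysterols, pair with retinoid X receptors and turn on genes of cholesterol export, Apoe and Abca1 among them. Secreted apolipoprotein E takes up cholesterol that ABCA1 hands over and is then bound by receptors of the lipoprotein receptor family, of which LRP1 is a large endocytic receptor and LRP8 a signalling receptor shared with reelin. In melanoma, apolipoprotein E acts on LRP1 of the tumour cells and on LRP8 of endothelial cells.

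Library totals ran from 32393958 to 46681945 counts, so that 3 counts were worth 0.0643 to 0.0926 CPM (counts scaled to the library total). The library labelled HR1 replicate 1 stood apart. Nfib, which codes for the transcription factor the study is about, was at 1343 CPM in it, at 23.9 and 18.3 CPM in HR1 replicates 2 and 3, and between 421 and 791 CPM in the LM tumours. Member values are therefore also given without that tumour. The cells are labelled as a breast cancer cell line, yet the epithelial keratin and junction markers summed to only 7.55 to 121 CPM in HR1, 158 to 181 CPM in LM1 and 14.4 to 18.0 CPM in LM9, most of it Krt14 outside HR1 replicate 1, and Epcam was at or below 4.49 CPM throughout. Fibroblast markers, collagens included, summed to 23424 to 35254 CPM in HR1, 10404 to 13828 CPM in LM1 and 8976 to 10546 CPM in LM9. Col1a1, the largest gene of the LM sums, overlapped between HR1 (7033 to 12670 CPM) and the LM tumours (6359 to 9245 CPM). Within HR1 the list was uneven, with Dcn at 17605 CPM in replicate 1 and at 432 and 329 CPM in replicates 2 and 3. Col1a2 and Postn were at 44.2 and 47.3 CPM in replicate 1, far below replicates 2 and 3. Adipocyte markers stayed at or below 9.24 CPM in sum. The 4 endothelial markers were split. Cdh5 and Kdr rose in LM1 and in LM9, while Pecam1 and Vwf were called lower in both LM models together and Pecam1 also in LM9 alone (log2 -2.64, adjusted p = 0.0134). The sum of that list, most of it Cdh5 in the LM tumours, was 5.30 to 23.6 CPM in HR1, 163 to 226 CPM in LM1 and 252 to 290 CPM in LM9. In RNA of sorted cells in bulk, fewer cells of a type and less RNA per cell cannot be told apart.

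The promoter windows of Apoe and Abca1 are shown because these are the members with the widest differences and both are textbook liver X receptor targets. Each window runs from 250 bases before to 50 bases after a RefSeq start site on build GRCm38.p6, 5′ to 3′ on the gene's own strand, the minus strand in both cases. The Apoe window lies at chr7:19699139-19699438 and the Abca1 window at chr4:53159846-53160145, and both start sites coincide with the first base of the GENCODE gene. Capitals mark matches to the letters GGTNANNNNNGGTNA, a loose form of the direct repeat that liver X receptor dimers bind, or to TTGGC, the NFI half-site letters, on either strand.
Apoe promoter: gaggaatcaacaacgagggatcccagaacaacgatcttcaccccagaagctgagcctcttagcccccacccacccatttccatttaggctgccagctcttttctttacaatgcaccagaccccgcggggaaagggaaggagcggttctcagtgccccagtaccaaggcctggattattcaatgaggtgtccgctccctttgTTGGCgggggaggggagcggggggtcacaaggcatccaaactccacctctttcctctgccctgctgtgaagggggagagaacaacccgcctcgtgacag
Abca1 promoter: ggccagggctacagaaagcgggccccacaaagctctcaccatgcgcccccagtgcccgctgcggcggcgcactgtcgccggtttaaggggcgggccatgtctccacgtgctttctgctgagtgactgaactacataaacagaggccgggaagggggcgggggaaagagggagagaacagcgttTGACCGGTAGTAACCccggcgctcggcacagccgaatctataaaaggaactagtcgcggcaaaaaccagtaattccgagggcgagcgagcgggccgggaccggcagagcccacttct
The Abca1 window held 1 match to the repeat, on the opposite strand, 67 to 53 bases before the start site, which reads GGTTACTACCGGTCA in the direction of the match. The Apoe window held no match to the repeat and 1 to TTGGC, 49 to 45 bases before the start site. Over all 32851 promoter windows of the table, 0.718% held the repeat letters and 46.7% held TTGGC, and the stricter repeat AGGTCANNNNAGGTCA was in 5 windows, none of a member. Of the 11 windows of the 6 members, 1 held the repeat letters and 6 held TTGGC. The palindrome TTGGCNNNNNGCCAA was in 12 windows of the table and in no window of a member.

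Set against HR1, both LM models had far less Apoe RNA, less Abca1, less Nr1h3 and less Nr1h2, more Lrp8, and an Lrp1 level that overlapped with HR1. In LM1 versus HR1 the tumours of the 2 models did not overlap for 5 of the 6 members, 1 higher and 4 lower, where 23.9% of all genes tested lay wholly higher and 21.7% wholly lower. LM9 versus HR1 gave the same split, 1 higher and 4 lower, against 28% and 25.3% of all genes. Between LM9 and LM1, which share the HR1 controls in the comparisons above, 1 member lay wholly higher and 1 wholly lower, against 31.9% and 31.1% of all genes. Since the members were chosen with these contrasts known, nothing is read from those counts. The median log2 fold change over all genes tested was -0.04 in LM1 and -0.05 in LM9.

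**Figure D1:**
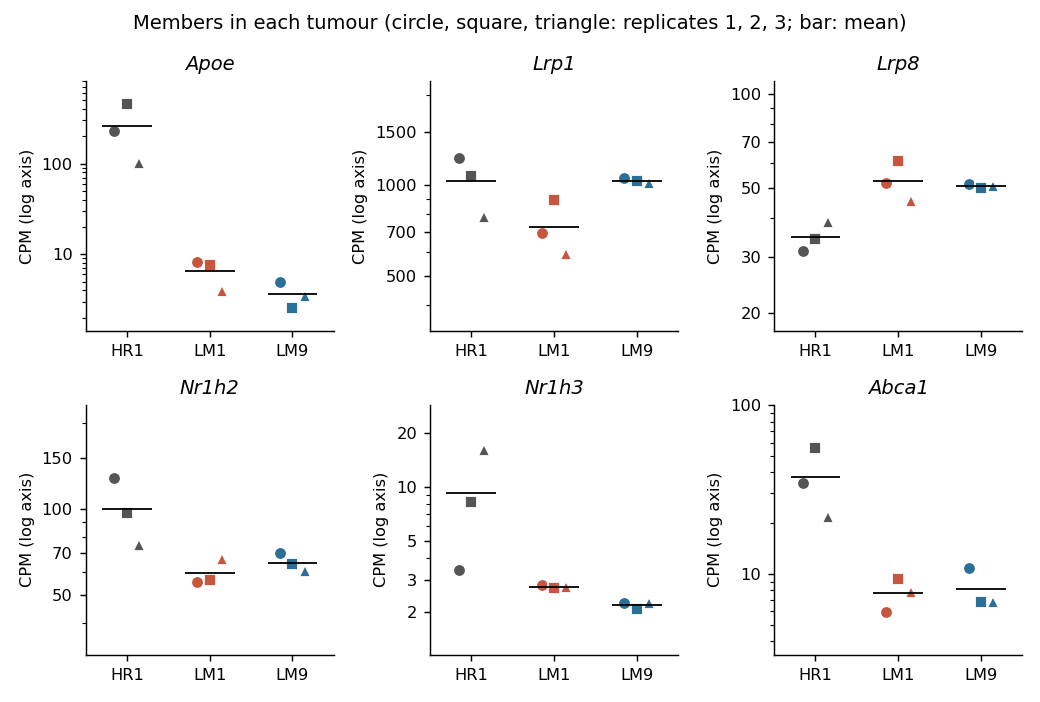
Normalised read counts (CPM, log axis) of the 6 members in each of the 9 tumours, by model, with a bar at the mean of the 3 tumours. HR1 lies above both LM models for Apoe, Nr1h2, Nr1h3 and Abca1 and below them for Lrp8, and Lrp1 in HR1 overlaps with both.

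Apoe, the ligand (Entrez gene 11816, chr7:19696109-19699188, minus strand), had the widest difference of the 6. It was at 228, 449.6 and 101 CPM in HR1 replicates 1 to 3, at 8.19, 7.63 and 3.99 CPM in LM1 and at 4.92, 2.56 and 3.44 CPM in LM9. The lowest HR1 tumour thus stood above the highest LM tumour by more than an order of magnitude, while LM1 and LM9 overlapped. These levels rest on 3908 to 19971 reads in HR1, 157 to 390 in LM1 and 112 to 229 in LM9. Fitted against HR1 with edgeR, the log2 fold change was -5.29 (SE 0.60) in LM1, a 39.2-fold lower level, and -6.15 (SE 0.63) in LM9, a 71.2-fold lower level. LM9 differed from LM1 by -0.86 (SE 0.52). Within HR1 the level varied by a coefficient of variation of 68.0%. Leaving out the library labelled HR1 replicate 1 gave -5.37 and -6.23, and over the removal of each of the 9 tumours in turn the value ran from -5.68 to -4.64 in LM1 and from -6.54 to -5.50 in LM9, the smallest change each time without HR1 replicate 2, its highest tumour.

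Macrophages make Apoe, and many but not all macrophage markers were lower in the LM tumours too. All 16 macrophage markers of the list were detected in every tumour, and their summed level was 365 to 1302 CPM in HR1, 309 to 366 CPM in LM1 and 286 to 361 CPM in LM9. By edgeR, 10 of the 16 fell and none rose against HR1 in each LM model at an adjusted p under 0.05 over all genes. Of all genes, 18.7% fell and 16.7% rose in LM1, and 21.9% fell and 20.4% rose in LM9. Among the defining markers, Adgre1 (F4/80) was at 35.4, 65.5 and 14.1 CPM in HR1 and 4.62 to 10.3 CPM in the LM tumours. Csf1r, the macrophage growth factor receptor, was at 66.1, 74.7 and 17.0 CPM in HR1, 18.2 to 21.1 CPM in LM1 and 7.14 to 11.7 CPM in LM9. Ptprc (CD45), which all leukocytes carry, was at 2.29 to 11.3 CPM and overlapped between all 3 models. The complement chains C1qa, C1qb and C1qc summed to 404, 527 and 104 CPM in HR1, 83.2 to 102 CPM in LM1 and 16.1 to 31.0 CPM in LM9.

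The match between Apoe and these markers was not one to one. HR1 replicate 3 and LM1 replicate 1 had nearly equal C1q sums, 104 and 102 CPM, and nearly equal macrophage sums, 365 and 366 CPM, while Apoe stood at 101 CPM in the first and 8.19 CPM in the second. Per CPM of C1q, Apoe came to 0.57 to 0.97 in HR1, 0.048 to 0.091 in LM1 and 0.11 to 0.16 in LM9, and HR1 did not overlap with either LM model. Per CPM of the 16 macrophage markers it came to 0.23 to 0.35 in HR1, 0.013 to 0.023 in LM1 and 0.0090 to 0.014 in LM9. Abca1 per CPM of C1q behaved otherwise, at 0.085 to 0.21 in HR1, 0.058 to 0.11 in LM1 and 0.22 to 0.42 in LM9, so that HR1 and LM1 overlapped and LM9 was the highest. The part of macrophage RNA in these differences was not tested.

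**Figure D2:**
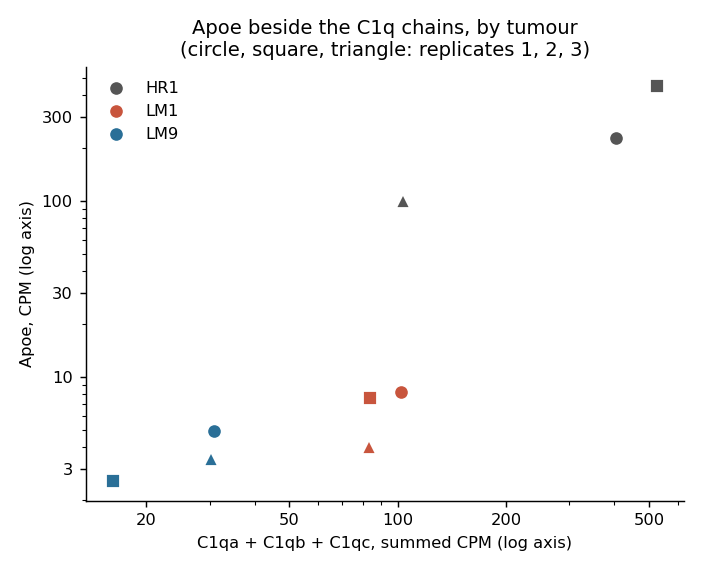
Apoe (CPM, log axis) against the summed C1q chains (CPM, log axis) in each of the 9 tumours, coloured by model. HR1 replicate 3, the triangle at 104 CPM of C1q, shares its C1q level with LM1 replicate 1 at 102 CPM but has 101 CPM of Apoe against 8.19 CPM.

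Lrp1 (chr10:127538161-127621148, minus strand) encodes the large endocytic receptor. Its level was 1234, 1072 and 782 CPM in HR1, 694, 895 and 589 CPM in LM1 and 1054, 1029 and 1018 CPM in LM9. LM9 lay within the HR1 range, LM1 overlapped with its lower end, and LM9 lay wholly above LM1. The log2 fold change was -0.50 (SE 0.21) in LM1 and 0.0058 (SE 0.21) in LM9 against HR1, and 0.51 (SE 0.21) between LM9 and LM1. Without HR1 replicate 1 the values against HR1 were -0.35 and 0.16.

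Lrp8 (chr4:107802261-107876840, plus strand), also called ApoER2, was the only member above HR1 in both LM models. It was at 31.4, 34.3 and 38.9 CPM in HR1, 51.8, 61.0 and 45.5 CPM in LM1 and 51.6, 49.9 and 50.9 CPM in LM9. Every LM tumour lay above every HR1 tumour, and LM9 lay inside the LM1 range. The log2 fold change was 0.60 (SE 0.15) in LM1 and 0.54 (SE 0.15) in LM9, or 0.54 and 0.48 without HR1 replicate 1. The antisense transcripts Lrp8os1 and Lrp8os2 overlap the gene, Gm16217 lies antisense in Lrp1, and Gm23390 overlaps Nr1h3 on the opposite strand. The strand setting of the counts is not given in the sources used here, so reads of these pairs may not be separated. Gm13783 overlaps Nr1h3 on the same strand, where no strand setting would separate the reads.

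Nr1h2 (chr7:44549616-44553951, minus strand) encodes LXRβ, the broadly expressed liver X receptor. Its level was 128, 96.5 and 74.9 CPM in HR1, 55.6, 56.6 and 66.9 CPM in LM1 and 69.9, 64.0 and 60.6 CPM in LM9. HR1 lay above both LM models, though HR1 replicate 3 was close to the highest LM9 tumour. The log2 fold change was -0.74 (SE 0.19) in LM1 and -0.62 (SE 0.19) in LM9, and these shrank to -0.51 and -0.40 without HR1 replicate 1, the tumour with the highest level.

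Nr1h3 (chr2:91184061-91202834, minus strand) encodes LXRα, the form typical of liver, fat and macrophages. It was at 3.42, 8.17 and 16.0 CPM in HR1, 2.81, 2.70 and 2.74 CPM in LM1 and 2.23, 2.06 and 2.23 CPM in LM9. The 3 models did not overlap, but HR1 replicate 1 lay close to LM1 and the HR1 tumours differed among themselves by a coefficient of variation of 69.0%. The log2 fold change was -1.74 (SE 0.48) in LM1 and -2.08 (SE 0.49) in LM9, and LM9 differed from LM1 by -0.34 (SE 0.47). Without HR1 replicate 1 the values against HR1 were -2.13 and -2.47, and without HR1 replicate 3, the tumour with the highest level, they were -1.08 and -1.42. The HR1 tumours were ordered differently for Nr1h3 than for Apoe, which was highest in replicate 2 and lowest in replicate 3.

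Abca1 (chr4:53030787-53159895, minus strand), the exporter that loads cholesterol onto apolipoproteins, was at 34.5, 55.9 and 21.8 CPM in HR1, 5.94, 9.26 and 7.77 CPM in LM1 and 10.9, 6.82 and 6.77 CPM in LM9. The lowest HR1 tumour lay above every LM tumour, and LM1 and LM9 overlapped. Its HR1 tumours had the order of Apoe, with replicate 2 highest and replicate 3 lowest. The log2 fold change was -2.29 (SE 0.37) in LM1 and -2.20 (SE 0.37) in LM9, or -2.34 and -2.25 without HR1 replicate 1.

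**Figure D3:**
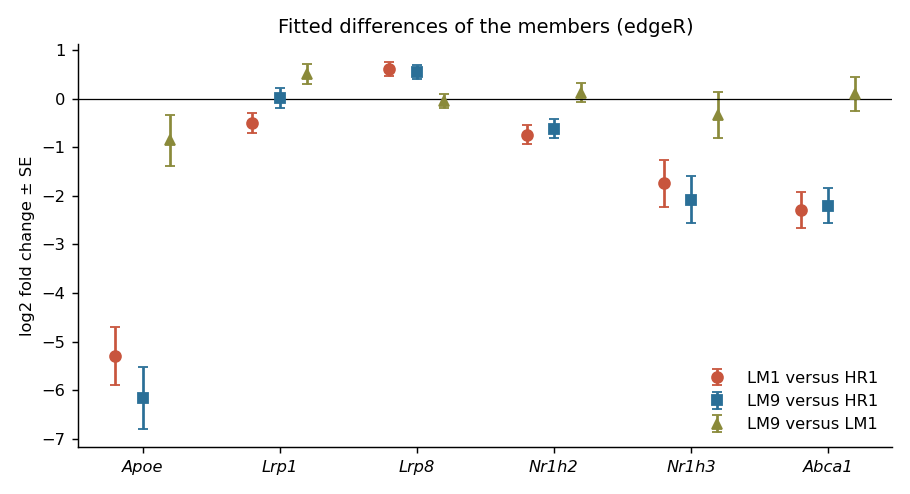
Fitted log2 fold changes of the 6 members (vertical axis, points) with their standard errors (bars) in LM1 versus HR1, LM9 versus HR1 and LM9 versus LM1. Apoe lies at -5.29 and -6.15 against HR1, Abca1 and Nr1h3 between -1.74 and -2.29, Nr1h2 at -0.74 and -0.62 and Lrp8 at 0.60 and 0.54.

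Per kilobase of exon (RPKM on the union of GENCODE exons), which allows genes to be compared, Apoe was the highest member in HR1 and stood below Lrp1, Nr1h2 and Lrp8 in the LM models. Mean Apoe was 121 ± 82.6 RPKM in HR1 (SD, n = 3), 3.09 ± 1.07 in LM1 and 1.70 ± 0.56 in LM9. Lrp1 came next in HR1 at 58.1 ± 12.9 RPKM, a difference from Apoe that is within the spread, and was first in LM1 at 41.0 ± 8.79 and in LM9 at 58.3 ± 1.04. Nr1h2 followed at 29.8 ± 8.01, 17.8 ± 1.86 and 19.3 ± 1.40 RPKM. Lrp8 was at 3.31 ± 0.36, 5.02 ± 0.74 and 4.83 ± 0.077 RPKM, above Apoe in both LM models. Nr1h3, at 3.66 ± 2.53, 1.09 ± 0.024 and 0.86 ± 0.039 RPKM, and Abca1, at 3.61 ± 1.67, 0.74 ± 0.16 and 0.79 ± 0.23 RPKM, did not differ from Lrp8 in HR1 beyond their spread, and did not differ from each other in HR1 or LM9. In every model LXRβ RNA was therefore the more abundant of the liver X receptors.

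**Figure D4:**
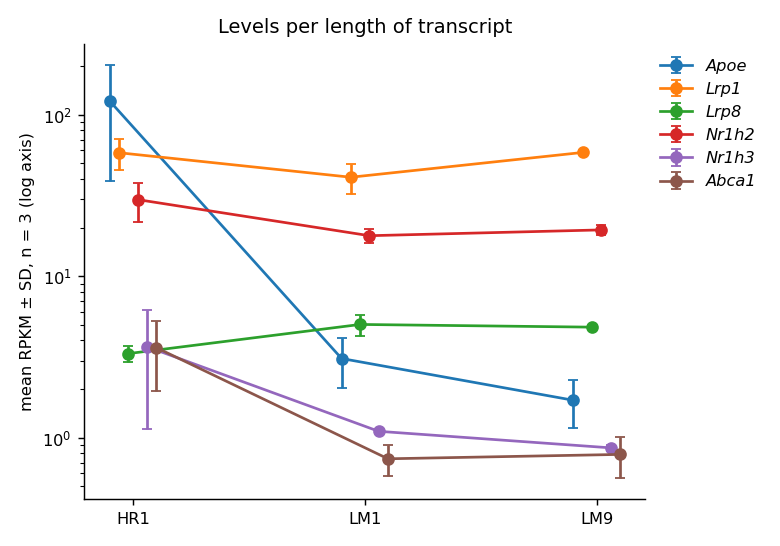
Mean level per length of transcript (RPKM, log axis) of the 6 members in HR1, LM1 and LM9, with SD over 3 tumours as bars. Apoe drops from 121 RPKM in HR1 to 3.09 and 1.70 RPKM in LM1 and LM9, below Lrp8 at 5.02 and 4.83 RPKM, while Lrp1 stays between 41.0 and 58.3 RPKM.

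The genes whose pattern was most like each member were ranked by Pearson's r of log2(CPM + 0.1) over the 9 tumours, among the 12377 genes that averaged 1 CPM or more. The tumours share their libraries, and for most members the HR1 tumours stand apart from the LM tumours, which by itself gives high values, so r is a description here. For Apoe the 5 nearest were Entpd1 (r = 0.987), an ectonucleotidase, Ptgfr (0.983), a prostaglandin receptor, Tnn (0.981), a tenascin, Dhx36 (0.980), a helicase, and 9330133O14Rik (0.980). Entpd1 was at 14.9, 31.6 and 8.36 CPM in HR1 and 0.53 to 0.97 CPM in the LM tumours, and it kept the order of Apoe within HR1. For Abca1 they were Cd33 (0.979), a receptor of myeloid cells, Slc17a5 (0.975), a lysosomal transporter, and Chrna1 (0.973). Lrp8 was most like Mga (0.988), Nsd2 (0.982) and Atad2 (0.978), genes of chromatin regulation. Lrp1 was most like Zfyve16 (0.958), Chst3 (0.951) and Narf (0.937). Nr1h2 was most like Map1lc3b (0.978), Acad8 (0.973) and F13a1 (0.971), and Nr1h3 most like Pir (0.984), Tmem132a (0.984) and Pgpep1 (0.979).

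The rest of the pathway was examined through 8 lists of 97 genes, members left out, of which 81 were tested. These genes were tested with edgeR over all genes, but the lists too were chosen with earlier results of these tumours known, so their counts and p-values are not independent support for any direction. The shares of all genes called, given next, are the background for each list as well. In LM1 versus HR1, 3 of the 81 rose and 24 fell, where 16.7% of all genes rose and 18.7% fell. In LM9 versus HR1, 16 rose and 12 fell, against 20.4% and 21.9% of all genes. In both LM models together versus HR1, 9 rose and 21 fell, against 19.9% and 23.6%. LM9 lay above LM1 for 16 genes and below it for 3, against 11.5% and 10.6%. The median log2 fold change of the 81 was -0.26 in LM1 and 0.03 in LM9. These counts moved with single tumours. Without HR1 replicate 1 they were 7 higher and 32 lower in LM1, 23 and 24 in LM9, and 35 and 7 between LM9 and LM1, in fits that also called more of all genes, 7453, 7862 and 6413 of 14107. Without LM1 replicate 1, 17 genes were called in LM1, and without any 1 of LM1 replicates 1 and 3 or the LM9 tumours, 6 to 10 were called between LM9 and LM1. Calls among all genes fell as well, from 4994 to 3121 in LM1 and from 3102 to between 1150 and 1451 for LM9 versus LM1.

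**Figure D5:**
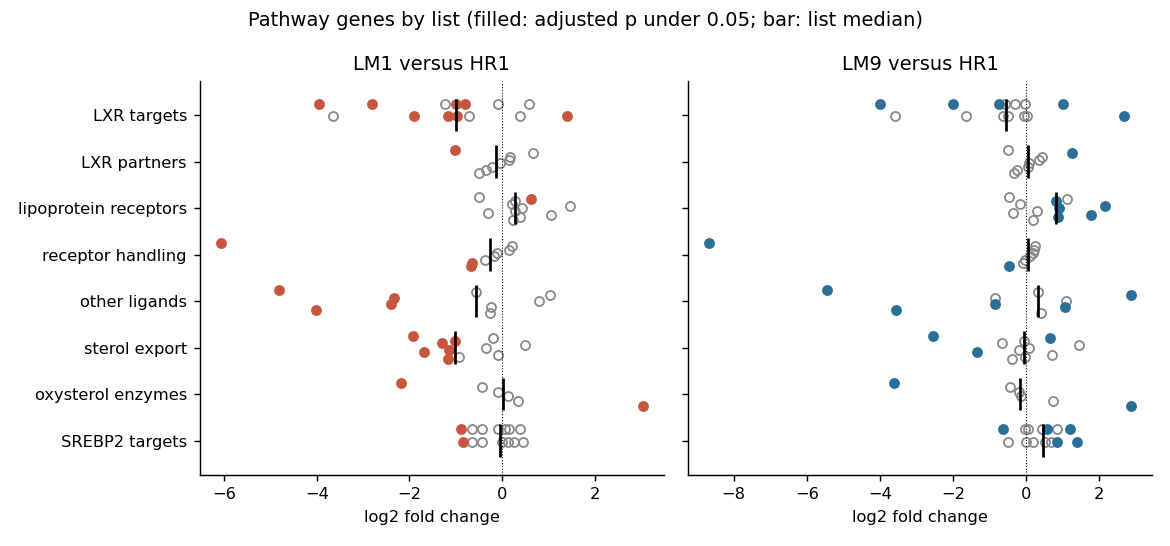
Log2 fold changes (horizontal axis) of the 81 tested pathway genes by list in LM1 versus HR1 and LM9 versus HR1, filled where the edgeR adjusted p was under 0.05, with a bar at each list's median. In LM1 the list of liver X receptor targets has a median of -0.99 and in LM9 the lipoprotein receptor family has a median of 0.81.

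More liver X receptor targets fell than rose in LM1. Of 14 tested, 1 rose and 7 fell in LM1 (median log2 fold change -0.99), and 2 rose and 3 fell in LM9 (median -0.54). The LM9 count was 2 higher and 7 lower without HR1 replicate 1, and without LM1 replicate 1 or 2 the LM1 count was 1 higher and 4 lower. Mylip, a ubiquitin ligase that marks lipoprotein receptor family proteins, LRP8 among them, for degradation, was at 15.2, 34.5 and 31.1 CPM in HR1, 2.88, 4.42 and 4.19 CPM in LM1 and 7.06, 7.48 and 5.69 CPM in LM9. It fell by 2.82 on the log2 scale (SE 0.34, adjusted p = 0.000576) in LM1 and by 2.0 (SE 0.33, adjusted p = 0.00195) in LM9, with no overlap between HR1 and the LM tumours. Srebf1, the lipogenic regulator that liver X receptors induce, was at 188, 258 and 235 CPM in HR1, 91.3, 102 and 109.5 CPM in LM1 and 134, 128 and 146 CPM in LM9. Its log2 fold change was -1.17 (SE 0.15, adjusted p = 0.000798) and -0.74 (SE 0.15, adjusted p = 0.00511). Abcg8, a sterol transporter subunit whose partner Abcg5 was not among the listed genes, was at 26.0, 3.38 and 23.8 CPM in HR1 and 0.90 to 1.44 CPM in the LM tumours, a log2 fold change of -3.96 (SE 0.69, adjusted p = 0.00314) in LM1 and -3.99 (SE 0.69, adjusted p = 0.00258) in LM9.

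Not all targets went down. Fasn, the fatty acid synthase that SREBP1 also drives, rose from 316 to 376 CPM in HR1 to 817 to 1029 CPM in LM1 and 641 to 710.5 CPM in LM9, by log2 fold changes of 1.41 (SE 0.15, adjusted p = 0.000334) and 1.01 (SE 0.14, adjusted p = 0.00109). Scd1, the stearoyl-CoA desaturase, fell by 1.90 (SE 0.29, adjusted p = 0.00176) in LM1, while its value in LM9 was -0.59 (SE 0.28, adjusted p = 0.125). Mertk, a receptor for the uptake of dying cells, was at 2.14 to 10.6 CPM in HR1, 7.31 to 10.7 CPM in LM1 and 32.4 to 39.6 CPM in LM9. It rose in LM9 with a log2 fold change of 2.69 (SE 0.50, adjusted p = 0.00372), against 0.59 (SE 0.48, adjusted p = 0.366) in LM1, and the rise was 3.48 without HR1 replicate 1. Pltp, which transfers phospholipids between lipoproteins, was at 80.0 to 86.7 CPM in LM1 and 159 to 176 CPM in LM9, with HR1 at 87.3 to 219.9 CPM, and fell in LM1 by 0.98 (SE 0.29, adjusted p = 0.027). That call was lost without any 1 of HR1 replicates 2 and 3 or the LM1 tumours (log2 -1.01 to -0.72, adjusted p = 0.064 to 0.086). Abcg1, the exporter most like Abca1 in function, was at 7.68, 29.3 and 10.8 CPM in HR1, 8.36 to 11.1 CPM in LM1 and 11.0 to 16.3 CPM in LM9, and its log2 fold changes of -0.71 (SE 0.45) and -0.29 (SE 0.45) did not pass, with adjusted p = 0.244 and 0.628. Lpl, lipoprotein lipase, was called in both LM models together with a log2 fold change of -3.61 (SE 1.02, adjusted p = 0.0202), which rested on 38.9 CPM in HR1 replicate 1 beside 4.91 and 0.26 CPM in replicates 2 and 3. Without that tumour it was -1.11 (adjusted p = 0.243), and the call was also lost without LM1 replicate 1, LM1 replicate 3 or LM9 replicate 2 (adjusted p = 0.0502 to 0.0516) and with limma-voom or the replicate block (adjusted p = 0.383 and 0.172).

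Of the partners and cofactors of the liver X receptors, 1 passed the test in each LM model. Among 8 tested, none rose and 1 fell in LM1, and 1 rose and none fell in LM9. These counts moved with single tumours. Without HR1 replicate 1, 3 fell in LM1, and 2 rose and 2 fell in LM9, while without any 1 of HR1 replicates 2 and 3, LM1 replicate 1 or the LM9 tumours none was called in LM1. Ep300, a histone acetyltransferase that serves as coactivator, was at 29.8 to 36.4 CPM in HR1, 36.9 to 74.3 CPM in LM1 and 73.4 to 86.9 CPM in LM9, with a log2 fold change of 1.27 (SE 0.24, adjusted p = 0.00362) in LM9 and 0.67 (SE 0.24, adjusted p = 0.0525) in LM1. Rxra, the main dimer partner, was at 44.2, 104 and 141 CPM in HR1, 44.9 to 51.6 CPM in LM1 and 63.5 to 74.3 CPM in LM9. Its call in LM1 (log2 -1.02, SE 0.34, adjusted p = 0.0465) was lost without any 1 of 8 tumours, all but HR1 replicate 1, at log2 values of -1.10 to -0.64 and adjusted p = 0.0697 to 0.136. It was also lost with library size only, limma-voom and the replicate block (adjusted p = 0.0691, 0.0839 and 0.0728). Rxrb was at 67.0 to 90.0 CPM in HR1 and 57.5 to 66.0 CPM in the LM tumours. Its call over both LM models (log2 -0.34, SE 0.12, adjusted p = 0.0462) was likewise lost without any 1 of 7 tumours, all but HR1 replicate 1 and LM1 replicate 3, at log2 values of -0.37 to -0.21 and adjusted p = 0.0609 to 0.177, and with the same 3 settings (adjusted p = 0.0519 to 0.0876). The corepressor Ncor1 was at 35 to 59.5 CPM in LM1 and 68.2 to 82.5 CPM in LM9, beside 50.4 to 61.8 CPM in HR1.

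Some relatives of Lrp1 and Lrp8 rose in LM9. Of 11 lipoprotein receptor family genes tested, 5 rose and none fell in LM9 (median log2 fold change 0.81), and 1 rose and none fell in LM1 (median 0.29). Without HR1 replicate 1 the split was 6 and 1 in LM9 and 3 and 1 in LM1. Without HR1 replicate 2 or 3, 2 and 4 rose in LM1, without LM1 replicate 1 or 2 none was called there, and without LM9 replicate 3 the rises in LM9 numbered 3. Of the 6 that did not pass in LM9, Lrp6, Lrp11 and Lrp12 had log2 fold changes below 0, at -0.16, -0.36 and -0.48. Vldlr, the nearest relative of Lrp8 and like it a receptor for apolipoprotein E and reelin, was at 9.28, 30.8 and 68.4 CPM in HR1, 43.8, 53.8 and 48.9 CPM in LM1 and 161, 154 and 169 CPM in LM9. It rose in LM9 by a log2 fold change of 2.16 (SE 0.56, adjusted p = 0.0156), and its value in LM1 was 0.43 (SE 0.54, adjusted p = 0.564). Without HR1 replicate 3 the rise in LM9 was 3.01. Lrp4, a receptor of the neuromuscular junction and of Wnt control, rose in both models, by 0.64 (SE 0.17, adjusted p = 0.0184) in LM1 and 0.90 (SE 0.17, adjusted p = 0.00363) in LM9, from 61.3 to 77.0 CPM in HR1. Lrp5, a Wnt coreceptor, was at 29.9, 77.4 and 135 CPM in HR1, 88.7 to 114 CPM in LM1 and 271 to 298 CPM in LM9 (log2 fold change 1.79, SE 0.44, adjusted p = 0.0121 in LM9 versus HR1, or 2.38 without HR1 replicate 3). Ldlrad3 also rose in LM9, by 0.86 (SE 0.23, adjusted p = 0.0168). Without LM9 replicate 3 the Ldlrad3 value was 0.76 (adjusted p = 0.0631), and without LM1 replicate 1 or 2 the Lrp4 call in LM1 was lost (adjusted p = 0.0526 and 0.0708). Lrp11 was at 0.80 to 1.09 CPM in LM9 and 2.25 to 3.38 CPM in LM1, and Lrp12 at 31.5 to 35.5 CPM in LM9 and 49.9 to 59.2 CPM in LM1. Reln, the other ligand of Lrp8 and Vldlr, and Lrp1b and Lrp3 were not among the listed genes.

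Among 8 adaptors that handle these receptors, none rose and 3 fell in LM1, where 18.7% of all genes fell, and none rose and 2 fell in LM9, a share near the 21.9% of all genes. Leaving out HR1 replicate 1 gave 1 higher and 3 lower in LM1 and 2 and 2 in LM9, and without LM1 replicate 1 or any 1 of the LM9 tumours, 1 fell in LM9. Gulp1, an engulfment adaptor that binds the LRP1 tail, was at 40.7, 12.1 and 14.7 CPM in HR1, 0.32, 0.32 and 0.36 CPM in LM1 and 0.043, 0.023 and 0.090 CPM in LM9, which is 4 reads or fewer a tumour. Its log2 fold change was -6.08 (SE 0.59, adjusted p = 0.000251) in LM1 and -8.68 (SE 0.69, adjusted p = 8.13e-05) in LM9, the latter near the detection floor. These were -5.33 and -7.93 without HR1 replicate 1, and -9.28 in LM9 without LM9 replicate 3. Dab2, a clathrin adaptor, fell in LM1 by 0.67 (SE 0.16, adjusted p = 0.012), at 44.4 to 47.9 CPM beside 60.7 to 89.5 CPM in HR1 and 82.0 to 94.5 CPM in LM9.

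Some other ligands of the same receptors fell in LM1 as well. Of 9 tested, none rose and 4 fell in LM1, and 2 rose and 3 fell in LM9. The LM9 split was 4 and 4 without HR1 replicate 1, and 3 falls with no rise without LM9 replicate 1, and in LM1 it was 2 and 5 without HR1 replicate 3. Selenop, the selenium carrier that LRP8 takes up, was at 605, 199.7 and 81.6 CPM in HR1, 9.81 to 10.9 CPM in LM1 and 6.18 to 7.79 CPM in LM9. Its log2 fold change was -4.83 (SE 0.67, adjusted p = 0.00116) and -5.45 (SE 0.69, adjusted p = 0.000676), or -3.75 and -4.38 without HR1 replicate 1, its highest tumour. Ccn2, a matricellular LRP1 ligand, was at 179, 64.8 and 108 CPM in HR1, 20.7 to 25.0 CPM in LM1 and 4.82 to 16.8 CPM in LM9, with log2 fold changes of -2.34 (SE 0.49, adjusted p = 0.00698) and -3.56 (SE 0.51, adjusted p = 0.00118), the latter -4.18 without LM9 replicate 1. Clu, clusterin or apolipoprotein J, was at 95.2, 20.1 and 37.4 CPM in HR1, 3.02 to 3.31 CPM in LM1 and 44.6 to 108 CPM in LM9, so that it fell in LM1 (log2 -4.02, SE 0.61, adjusted p = 0.00168, or -3.19 without HR1 replicate 1) and had a value of 0.42 (SE 0.53, adjusted p = 0.554) in LM9. Thbs1, thrombospondin, was at 257 to 489 CPM in HR1, 475 to 820.3 CPM in LM1 and 676 to 891 CPM in LM9, a rise of 1.07 (SE 0.28, adjusted p = 0.0151) in LM9 that became 0.94 (adjusted p = 0.0588) without LM9 replicate 1. Tfpi, an inhibitor of coagulation that LRP1 clears, was at 0.40 to 3.83 CPM in HR1, 0.16 to 0.46 CPM in LM1 and 9.32 to 13.6 CPM in LM9. It rose in LM9 by a log2 fold change of 2.88 (SE 0.80, adjusted p = 0.0193), a call lost without LM9 replicate 1 or 2 at adjusted p = 0.0548 and 0.0534, and by 4.52 without HR1 replicate 2. Its fall in LM1 (log2 -2.39, SE 0.82, adjusted p = 0.0499) was lost without any 1 of 7 tumours, all but HR1 replicates 1 and 3, at adjusted p = 0.0729 to 0.242, and was -0.76 without HR1 replicate 2, the highest of its group.

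Among genes of sterol export and lysosomal release, falls outnumbered rises in LM1. Of 11 tested, none rose and 6 fell in LM1 (median log2 fold change -1.02), and 1 rose and 2 fell in LM9 (median -0.07). The LM9 count was 1 higher and 4 lower without HR1 replicate 1. Abca7, a relative of Abca1, was at 51.6, 83.4 and 67.3 CPM in HR1, 17.3 to 18.0 CPM in LM1 and 22.9 to 30.6 CPM in LM9, with log2 fold changes of -1.93 (SE 0.20, adjusted p = 0.0003) and -1.35 (SE 0.19, adjusted p = 0.00108). Lipa, the acid lipase that frees cholesterol in lysosomes, was at 309, 689.9 and 459 CPM in HR1, 219 to 262 CPM in LM1 and 286 to 327 CPM in LM9, and the fall of 1.02 (SE 0.26, adjusted p = 0.0154) in LM1 was lost without LM1 replicate 1 or 2 (adjusted p = 0.0632 and 0.0522). Npc1 and Npc2, which pass cholesterol out of lysosomes, fell in LM1 by 1.31 (SE 0.29, adjusted p = 0.00949) and 1.17 (SE 0.24, adjusted p = 0.00674) and had values of 0.08 (SE 0.29, adjusted p = 0.843) and -0.03 (SE 0.24, adjusted p = 0.935) in LM9. Npc1 was at 28.2 to 34.1 CPM in LM1 and 75.6 to 88.8 CPM in LM9. Soat1, which stores cholesterol as esters, and Nceh1, which breaks such esters down, had levels of 112 to 119 CPM and 55.2 to 73.4 CPM in LM9, against 62.9 to 78.2 CPM and 29.9 to 33.5 CPM in LM1. Trem2, a myeloid receptor that binds apolipoprotein E, was at 14.3, 27 and 4.91 CPM in HR1, 4.34 to 5.05 CPM in LM1 and 1.83 to 3.44 CPM in LM9, and fell in LM9 by 2.53 (SE 0.55, adjusted p = 0.00691), or by 1.85 without HR1 replicate 2, beside the macrophage sums given above. In LM1 it overlapped with HR1, and its call there (log2 -1.69, SE 0.53, adjusted p = 0.0362) was lost without any 1 of 7 tumours, all but HR1 replicates 1 and 3, at log2 values of -1.74 to -1.01 and adjusted p = 0.0504 to 0.124, and with limma-voom or the replicate block.

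Enzymes that make oxysterols and their precursors gave 1 rise and 1 fall among 6 tested in each LM model. Cyp27a1, which makes 27-hydroxycholesterol and whose name is given here after its values were seen, was the gene that fell, from 0.51 to 3.59 CPM in HR1 to 0.39 to 0.58 CPM in LM1, which overlapped with HR1 replicate 3, and 0.11 to 0.26 CPM in LM9, with adjusted p = 0.0336 in LM1 and 0.00501 in LM9. Its call in LM1 was lost without HR1 replicate 2, LM9 replicate 3 or any 1 of the LM1 tumours (adjusted p = 0.0553 to 0.112), and with limma-voom or the replicate block (adjusted p = 0.108 and 0.0781).

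SREBP2 targets, which rise when cells are short of cholesterol, were tested as the opposite arm of sterol control. Of 14 tested, none rose and 2 fell in LM1 (median log2 fold change -0.04), and 4 rose and 1 fell in LM9 (median 0.48). Single tumours moved these counts too. Leaving out HR1 replicate 1, 4 fell in LM1, and 5 rose and 3 fell in LM9. In LM1 the count was 1 higher and 4 lower without HR1 replicate 2, and 1 lower without any 1 of the LM tumours. In LM9 it was 7 higher and 1 lower without HR1 replicate 3, 2 higher without LM9 replicate 2, and 2 higher and 1 lower without LM9 replicate 3. Stard4, a cholesterol carrier, was at 8.08 to 10.03 CPM in HR1, 10.2 to 11.1 CPM in LM1 and 22.7 to 24.1 CPM in LM9, a rise of 1.40 (SE 0.15, adjusted p = 0.000368) in LM9. Insig1, which holds back SREBP processing, rose in LM9 by 1.19 (SE 0.29, adjusted p = 0.0119), at 96.2 to 102 CPM beside 23.2 to 61.0 CPM in HR1, and had a value of -0.00074 (SE 0.29, adjusted p = 0.999) in LM1. Fdft1, squalene synthase, was at 41.0 to 55.0 CPM in HR1, 41.0 to 53.7 CPM in LM1 and 69.0 to 81.6 CPM in LM9, and its rise of 0.58 (SE 0.16, adjusted p = 0.0203) was lost without HR1 replicate 2, LM9 replicate 2 or LM9 replicate 3 (adjusted p = 0.051 to 0.0788). Mvd, of the mevalonate pathway, fell in LM1 by 0.83 (SE 0.16, adjusted p = 0.00463), from 27.3 to 38.3 CPM in HR1 to 18.0 to 19.4 CPM, and in LM9 by 0.63 (SE 0.16, adjusted p = 0.0131), a call lost without LM9 replicate 2 (adjusted p = 0.0526).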

How the data were processed

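The members and gene lists were chosen with earlier results of these data known. Per the labels, libraries were made with the Illumina TruSeq stranded mRNA kit. The deposited counts are whole reads per Entrez gene, made by the authors, who aligned reads to mm10 with STAR and counted their 5′ ends over the union of each gene's exons with QuasR. Gene symbols and promoter windows came from RefSeq tables of GRCm38.p6, and 14085 of 14108 genes had a symbol. Loci and exon lengths came from GENCODE on the same build.

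Counts were fitted with edgeR 4.0.16 (TMM, filterByExpr, quasi-likelihood F-test, Benjamini-Hochberg adjustment over 14086 genes, threshold 0.05) on all 9 tumours with 3 model means. The study's own method, limma-voom, was an alternative, beside DESeq2 1.42.0, other scalings and filters, a replicate block and the removal of each tumour. The fit was tested on simulated data. Libraries of 1 model differed beyond sampling noise, so none was treated as a duplicate of another, which does not show that they came from separate mice. CPM and RPKM used TMM library sizes, with factors of 0.928 to 1.05. Named pathway genes were the up to 3 called genes with the largest rise and fall of each list in LM1 and LM9 versus HR1 and in LM9 versus LM1, with a mean of at least 1 CPM, plus Vldlr, Abcg1, Mylip, Srebf1, Rxra and Rxrb. Other genes named in the pathway were chosen after their values were seen. Some list genes that this rule names are not reported here, though they stay in the counts.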

Additional observations from a re-analysis of the deposited data

Results flagged for a closer look

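The effects of LM1 and LM9 against HR1 differed, by the edgeR test of LM9 versus LM1 at an adjusted p under 0.05 over all genes, for 19 of the 81 pathway genes, 16 of them higher in LM9 and 3 lower. Of all genes 11.5% were called higher and 10.6% lower, 3102 of 14086 in all, so that the total of 19 is near the background. The widest differences were in ligands of the receptors, with Tfpi at a log2 difference of 5.28 (adjusted p = 0.00585) and Clu at 4.43 (adjusted p = 0.00274). Against HR1 the fitted values in LM1 and LM9 were -2.39 and 2.88 for Tfpi and -4.02 and 0.42 for Clu. The Tfpi value in LM1 (adjusted p = 0.0499) was lost without any 1 of 7 tumours, all but HR1 replicates 1 and 3, at adjusted p = 0.0729 to 0.242, and with library size only, limma-voom or the replicate block, at adjusted p = 0.0546 to 0.154. Without HR1 replicate 2 it was -0.76 in LM1 and 4.52 in LM9. Mertk at 2.10 (adjusted p = 0.0188), Scd1 at 1.31 (adjusted p = 0.0145) and Pltp at 1.01 (adjusted p = 0.0362) were the liver X receptor targets concerned. Among genes of cholesterol traffic they were Npc1 at 1.39, Npc2 at 1.14, Nceh1 at 1.01 and Soat1 at 0.739 (adjusted p = 0.00302 to 0.0205), and among SREBP2 targets Insig1 at 1.19, Stard4 at 1.13 and Fdft1 at 0.656 (adjusted p = 0.00249 to 0.0225). The adaptor Dab2 at 0.921 (adjusted p = 0.00591), the Wnt coreceptor Lrp5 at 1.5 (adjusted p = 0.0394) and the corepressor Ncor1 at 0.65 (adjusted p = 0.0462) also lay higher in LM9. Gulp1 at -2.59 (adjusted p = 0.0249), on at most 15 reads in any LM tumour, Lrp11 at -1.41 (adjusted p = 0.044) and Lrp12 at -0.691 (adjusted p = 0.046) lay lower.

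Many of these calls were close to the threshold. Those of Lrp5, Lrp11, Lrp12, Pltp and Insig1 were lost without any 1 of the 6 LM tumours (adjusted p = 0.0588 to 0.140), that of Gulp1 without any 1 of the LM tumours but LM9 replicate 3 (adjusted p = 0.0539 to 0.0944), that of Soat1 without any but LM1 replicate 3 (adjusted p = 0.0613 to 0.0894), that of Fdft1 without any but LM1 replicate 3 (adjusted p = 0.0633 to 0.0909), that of Ncor1 without HR1 replicate 2 or any LM tumour but LM1 replicate 2 (adjusted p = 0.052 to 0.158), that of Mertk without LM1 replicate 1 or 3 or LM9 replicate 1 or 2 (adjusted p = 0.0596 to 0.0807), that of Npc1 without LM1 replicate 1 or 3 or LM9 replicate 1 (adjusted p = 0.0528 to 0.0628), that of Scd1 without LM1 replicate 1 or LM9 replicate 1 or 3 (adjusted p = 0.0509 to 0.0695), and that of Npc2 without LM1 replicate 1 or LM9 replicate 3 (log2 1.17 and 1.09). The calls of Lrp5, Lrp11, Lrp12, Ncor1 and Pltp were also lost with the replicate block (adjusted p = 0.0513 to 0.0794), those of Lrp5, Ncor1 and Pltp with library size only (adjusted p = 0.0532 to 0.0691), and that of Gulp1 with limma-voom (adjusted p = 0.241).

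Next to Apoe on chromosome 7, Tomm40 at -0.833 (adjusted p = 0.00737) and Nectin2 at 1.47 (adjusted p = 0.00481) differed between LM9 and LM1 as well.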

How the results depend on the processing

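No call of a named pathway gene changed direction under any setting that could be fitted for it, and Cyp27a1 did not pass the filter of at least 1 CPM. Library size only, limma-voom or the replicate block ended the calls of Rxra, Rxrb, Lpl, Tfpi, Cyp27a1 and Trem2 against HR1 and of Gulp1, Lrp5, Lrp11, Lrp12, Ncor1 and Pltp between the LM models, as given above. They also ended the call of Npc2 over both LM models against HR1 (adjusted p = 0.0634 to 0.0704), and other size factors, the filter of at least 1 CPM or the block ended that of Ldlrad3 (adjusted p = 0.0527 to 0.0761). Of the members, 3 values near 0 changed sign within 1 SD, those of Lrp1 in LM9 versus HR1 (-0.16 to 0.16) and of Lrp8 (-0.15 to 0.07) and Abca1 (-0.17 to 0.26) in LM9 versus LM1. The pathway genes called numbered 30, 27, 28 and 19 in LM1 and LM9 versus HR1, LM1 versus HR1, LM9 versus HR1 and LM9 versus LM1, and every count except 1 stayed within 1.5 times its main value under the 7 alternatives that kept all tumours. The exception was LM9 versus LM1 with DESeq2, at 30 (25 higher, 5 lower), and the cause of this excess was not tested. Data were simulated for LM1 and LM9 versus HR1 only, with 200 of 14086 genes changed. There, false calls came to 28.19% with DESeq2 and 4.08% with edgeR. DESeq2 recovered 55% of genes changed 2-fold and 80% of those changed 4-fold, and edgeR 26% and 68%. Whether these shares hold for LM9 versus LM1 was not tested. With library size only, the split in LM1 versus HR1 was 6 higher and 20 lower in place of 3 and 24. Leaving out 1 tumour gave 23 to 42, 17 to 39, 23 to 47 and 6 to 42 genes, the highest each time without HR1 replicate 1. The same removals moved the Nr1h3 log2 fold change over -2.13 to -1.08 in LM1 and -2.47 to -1.42 in LM9, and left the other members within 1 SD of their main values. Tumours of different models that share a replicate number deviated together in no regular way (correlations of -0.117 to 0.162), so they were not treated as pairs. Such correlations cannot show what the numbers stand for, or exclude a weak shared batch. With a replicate block the counts were 28, 23, 27 and 15, and of all genes 5234 in place of 6138 were called in LM1 and LM9 versus HR1. At most 4 reads of Gulp1 in LM9 limit its fold change.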

Other observations

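The protein-coding genes beside Apoe were examined after its values were seen. Tomm40, whose RefSeq span lies 3 bases from that of Apoe, encodes the pore of mitochondrial protein import. It was at 84.2, 84.0 and 80.2 CPM in HR1, 185, 162 and 170.0 CPM in LM1 and 83.5, 118 and 88.3 CPM in LM9, with a log2 fold change of 1.06 (adjusted p = 0.00135, edgeR) in LM1 and 0.22 (adjusted p = 0.258) in LM9. Nectin2, an adhesion molecule 15334 bases away, rose in both models, by 1.31 (adjusted p = 0.00392) and 2.79 (adjusted p = 0.000136), from 2.56 to 3.96 CPM in HR1 to 7.75 to 9.28 CPM in LM1 and 20.1 to 30.1 CPM in LM9. Clptm1, on the other side at 31214 bases, was at 166 to 249.9 CPM in all tumours, with values of -0.02 (adjusted p = 0.948) and -0.24 (adjusted p = 0.265). Apoc1, Apoc2 and Apoc4, which lie between Apoe and Clptm1, were not among the listed genes. Bcam, 54828 bases away beyond Nectin2, was at 0.069 to 0.60 CPM throughout, with values of -0.27 (adjusted p = 0.735) and -1.70 (adjusted p = 0.0445).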
